A study of Mus musculus with 9 samples.

Results

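The annexins are calcium-dependent proteins that bind acidic phospholipids such as phosphatidylserine on membranes. The 8 annexin genes described here, Anxa1, Anxa2, Anxa3, Anxa4, Anxa5, Anxa6, Anxa7 and Anxa11, were taken by gene name from a table of 34745 genes, which holds 12 annexin genes in all. All 8 were measured in mouse spinal cord at 0, 3 and 21 days after the cord had been cut through completely at T9. Each day has 3 libraries of poly-A-selected RNA, made with the TruSeq kit and read in pairs on an Illumina NovaSeq instrument. The study's title concerns PANoptosis, a form of inflammatory cell death, and screening for neuroprotective drugs.

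The day 3 and day 21 groups are so titled, and the remaining group, titled N without explanation, was taken as day 0 because the study names 0, 3 and 21 days. Every sample is labelled as spinal cord, and no group is described as sham-operated, so effects of the cut cannot be told apart from those of surgery. The sources used here give no strain, sex or age, no length of cord and no word on whether day 0 cords were cut. Nor do they say whether each library is a different animal, and p-values therefore cover only the spread among these libraries, which could be technical.

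Annexins share a conserved calcium-binding core, and their tails differ and bind different partners. Several are known to seal holes in the plasma membrane, Anxa5 is used to stain cells that expose phosphatidylserine, and Anxa1 limits inflammation through formyl peptide receptors. In the nervous system they are known from glia, phagocytes and sensory neurons as well as from vessels and connective tissue.

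Total counts per library lay between 14299679 and 24022923, and 16494 genes passed the filter on low counts, all 8 annexins among them. Day 21 replicate 2 stood apart. Its log2 CPM correlated at 0.943 and 0.935 with the other day 21 libraries, which correlated with each other at 0.987, and it held the largest share of ribosomal protein counts (1.33% of counts, with a lowest value of 0.527% over the 9 libraries). By sample weight it had 0.0583 and day 0 replicate 1 had 0.354, and the other libraries had 1.02 to 2.03. Annexin calls that change without either library are given both ways. Neuron, astrocyte and oligodendrocyte markers each summed to at least 1458 FPKM in every library.

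The promoters of 4 annexins are shown to set side by side the gene with the largest rise at day 3 (Anxa1), that with the deepest later fall (Anxa2), a gene that was above day 0 at day 3 only (Anxa11) and the most abundant annexin of both later days (Anxa5). Promoter sequences come from RefSeq on GRCm38.p6, the build family of the table's coordinates, and 6 of the 8 annexins matched an entry, with none for Anxa3 and Anxa6. Each window holds the 250 bases before the RefSeq start, written 5′ to 3′ on the strand of the gene. Capitals mark matches on either strand to TGANTCA (the AP-1 motif), TATAAA (the TATA box) or GGGCGG (the GC box). The windows are chr19:20390672-20390921 on the minus strand for Anxa1, chr9:69453433-69453682 on the plus strand for Anxa2, chr14:25841905-25842154 on the plus strand for Anxa11 and chr3:36475888-36476137 on the minus strand for Anxa5.
Anxa1: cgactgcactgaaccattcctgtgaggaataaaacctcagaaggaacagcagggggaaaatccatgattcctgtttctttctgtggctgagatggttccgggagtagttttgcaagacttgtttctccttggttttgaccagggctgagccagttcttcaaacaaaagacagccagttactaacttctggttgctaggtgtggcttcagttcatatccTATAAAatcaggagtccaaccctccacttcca
Anxa2: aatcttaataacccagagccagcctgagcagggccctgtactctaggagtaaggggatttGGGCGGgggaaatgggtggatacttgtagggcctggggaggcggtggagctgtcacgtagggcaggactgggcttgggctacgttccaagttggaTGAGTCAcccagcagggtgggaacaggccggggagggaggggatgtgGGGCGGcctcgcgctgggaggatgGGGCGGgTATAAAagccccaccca
Anxa11: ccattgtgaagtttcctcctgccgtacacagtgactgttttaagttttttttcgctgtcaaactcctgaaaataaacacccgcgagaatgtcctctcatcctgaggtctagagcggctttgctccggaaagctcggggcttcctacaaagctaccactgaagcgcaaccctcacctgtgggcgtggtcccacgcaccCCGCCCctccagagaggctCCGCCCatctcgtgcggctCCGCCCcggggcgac
Anxa5: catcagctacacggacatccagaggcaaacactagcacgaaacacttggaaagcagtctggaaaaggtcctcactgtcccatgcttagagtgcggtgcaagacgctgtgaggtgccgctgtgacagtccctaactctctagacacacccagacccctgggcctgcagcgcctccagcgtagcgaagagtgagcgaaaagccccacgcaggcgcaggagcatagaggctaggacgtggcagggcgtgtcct

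In the Anxa1 window a TATA box began 32 bases before the start, and 46% of its bases were G or C. That start lies 273 bases inside the gene as the table gives it, so the window lies within the longer gene span. In the Anxa2 window an AP-1 motif began 95 bases before the start, a TATA box 17 bases before it, and GC boxes 190, 48 and 24 bases before it. For Anxa11 only GC boxes were found, at 53, 34 and 15 bases before the start, and the Anxa5 window held none of the motifs. Over 32851 mouse promoters of the same length, 6.75% held TGANTCA, 12.4% held TATAAA and 32.7% held GGGCGG on either strand, and the median G+C content was 52.4%. A chromosome that holds none of the annexin genes was left out of these promoters. The letters TTCNNNGAA (a STAT motif, in 7.02% of promoters) and CCAAT (in 33.9%) were in none of the 6 annexin windows. No motif overlapped another in the windows shown. A match describes letters in a window and was not tested for binding.

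At 3 days most annexins were more abundant than at day 0, led by Anxa1, Anxa2 and Anxa3, and at 21 days 5 of them were still above day 0 and Anxa6 was below it. In day 3 cords 7 of the 8 annexins were higher than at day 0 and Anxa6 was not called, where a call is an edgeR quasi-likelihood p, adjusted by Benjamini-Hochberg over all 16494 genes, under 0.05. Of all tested genes 44.3% were called in that comparison, with 24.8% higher and 19.5% lower. By FPKM, 7 annexins had all day 3 libraries above all day 0 libraries, as did 37.5% of tested genes. The median log2 fold change of the 8 annexins was 1.32, and that of all tested genes was 0.01. In bulk tissue fewer or more cells of a type and less or more RNA per cell cannot be told apart. Levels below are in FPKM, the authors' counts scaled to gene length and to library totals, given for replicates 1, 2 and 3 in turn, and differences are log2 fold changes of counts ± SE from 1 edgeR fit of all 9 libraries.

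**Figure D1:**
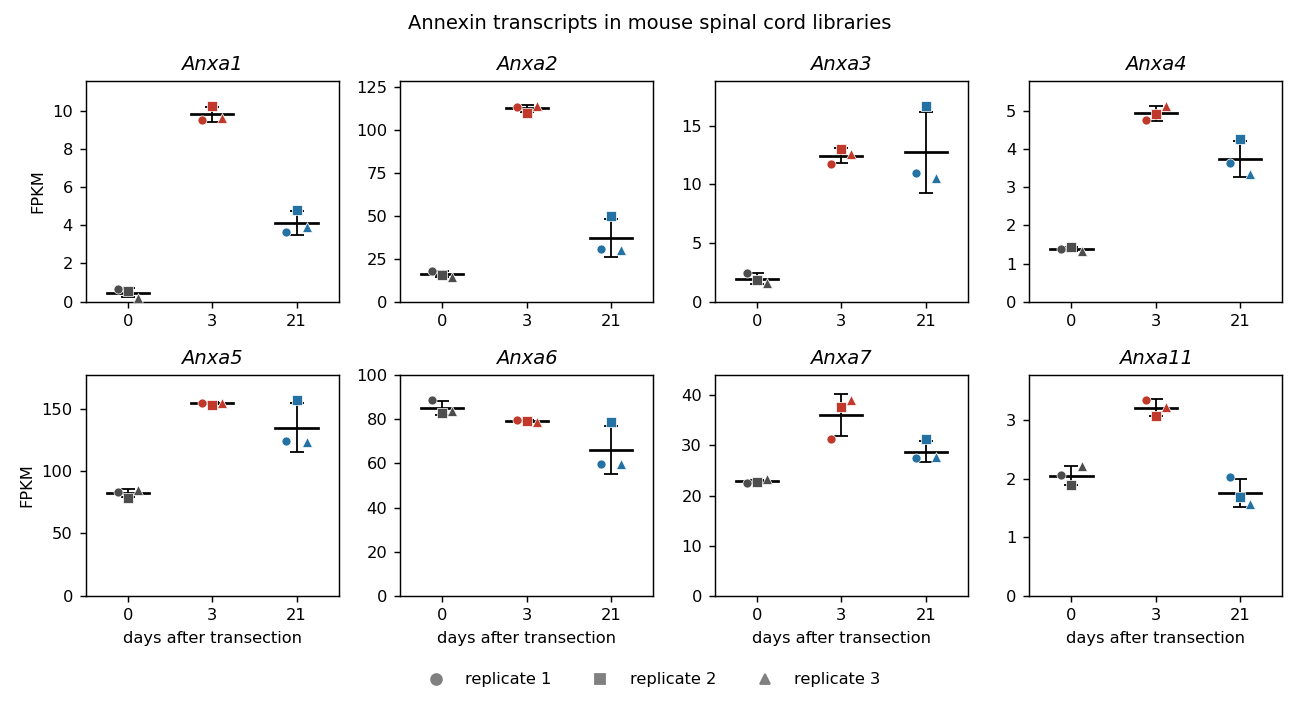
FPKM of each of the 8 annexins (y axes, linear from 0, 1 scale per gene) in the 9 libraries by day after transection (x axes). Points are libraries, and horizontal lines with error bars are group means ± SD (n = 3). Anxa1, Anxa2, Anxa3, Anxa4 and Anxa5 have every day 3 library above every day 0 library, and day 21 replicate 2 is the highest day 21 library for all annexins shown except Anxa11.

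In the plot of library values the day 0 points of Anxa1 lie under 1 FPKM and those of Anxa5 and Anxa6 above 78 FPKM. Anxa1 (ENSMUSG00000024659, GRCm38 chr19:20373428-20390944, minus strand) encodes the glucocorticoid-regulated annexin that curbs leukocyte entry and binds formyl peptide receptors. It had 0.675, 0.556 and 0.196 FPKM at day 0, 9.52, 10.3 and 9.62 FPKM at day 3 and 3.66, 4.82 and 3.90 FPKM at day 21. The day 0 values rest on 61, 33 and 13 counts. The groups did not overlap, and day 3 libraries were the highest. Its log2 fold change of 4.29 ± 0.33 at day 3 against day 0, or 19.6-fold, was the largest of the 8 annexins and exceeded that of 98.1% of tested genes (edgeR adjusted p = 8.92e-06). At day 21 it was still higher than at day 0 (2.97 ± 0.32, edgeR adjusted p = 0.000196) and lower than at day 3 (-1.32 ± 0.28, edgeR adjusted p = 0.00819). By mean FPKM it stood above 16.5% of tested genes at day 0, 74.3% at day 3 and 52.9% at day 21.

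Anxa3 (ENSMUSG00000029484, GRCm38 chr5:96793339-96845966, plus strand) is best known from phagocytes, among them neutrophils. Its levels were 2.46, 1.81 and 1.59 FPKM at day 0, 11.7, 13.0 and 12.6 FPKM at day 3 and 10.9, 16.7 and 10.5 FPKM at day 21. All day 3 and day 21 libraries lay above all day 0 libraries, and days 3 and 21 overlapped. The day 3 difference from day 0 was 2.62 ± 0.21 (edgeR adjusted p = 1.07e-05) and the day 21 difference from day 0 was 2.57 ± 0.21 (edgeR adjusted p = 3.43e-05). Between day 21 and day 3 the difference was -0.04 ± 0.19 and missed the threshold (edgeR adjusted p = 0.896). Its sign turned in some settings. It was -0.27 without day 21 replicate 2 (edgeR adjusted p = 0.118), and 0.04 or 0.07 without day 21 replicate 1 or 3. Of its exon bases 3.07% are shared with Gm42603 on the same strand.

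Anxa2 (ENSMUSG00000032231, GRCm38 chr9:69453620-69491795, plus strand) forms a complex with S100a10 at the cell surface, where it binds plasminogen and its activator Plat, and takes part in membrane repair. The libraries held 18.0, 15.4 and 14.4 FPKM at day 0, 113, 110.1 and 114 FPKM at day 3 and 30.9, 50.1 and 30.1 FPKM at day 21. No groups overlapped, and the 3 day 3 libraries differed by only a few FPKM. At day 3 it was 6.83-fold higher than at day 0 (2.77 ± 0.19, edgeR adjusted p = 4.28e-06), and only Anxa5 had a higher annexin level on that day. By day 21 it was 2.13-fold higher than at day 0 (1.09 ± 0.18, edgeR adjusted p = 0.00219). The fall from day 3 was the deepest of the 8 annexins, at -1.68 ± 0.18 for day 21 against day 3 (edgeR adjusted p = 0.000255). Day 21 replicate 2 held 1.64 times the mean of the other day 21 libraries, and without it the day 21 difference from day 0 was 0.83 (edgeR adjusted p = 1.95e-05). An antisense gene, Gm16144, covers 2.63% of its exon bases, and the sources used here do not say whether counting used strand.

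Anxa4 (ENSMUSG00000029994, GRCm38 chr6:86736840-86793584, minus strand), known from epithelia and from membrane repair, was low throughout. Its libraries held 1.39, 1.43 and 1.33 FPKM at day 0, 4.76, 4.93 and 5.15 FPKM at day 3 and 3.63, 4.27 and 3.34 FPKM at day 21. The day 3 and day 21 libraries all lay above those of day 0, and the days did not overlap. It was higher at day 3 than at day 0 (1.79 ± 0.12, edgeR adjusted p = 3.07e-06) and at day 21 than at day 0 (1.31 ± 0.12, edgeR adjusted p = 5.62e-05). It fell between the later days, with -0.47 ± 0.11 for day 21 against day 3 (edgeR adjusted p = 0.0134). That call was lost without day 3 replicate 3 (edgeR adjusted p = 0.0606) and in a fit of those groups alone (0.0575). Gm44036 on the other strand covers 1.61% of its exon bases.

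Anxa5 (ENSMUSG00000027712, GRCm38 chr3:36448923-36475894, minus strand) binds exposed phosphatidylserine and forms a lattice on damaged membranes. Its transcripts stood at 83.3, 78.6 and 84.5 FPKM at day 0, 155, 153 and 155 FPKM at day 3 and 124, 157 and 123 FPKM at day 21. Every day 3 and day 21 library lay above every day 0 library, while days 3 and 21 overlapped through day 21 replicate 2. Its rise at day 3 over day 0 was 0.86 ± 0.11, or 1.81-fold (edgeR adjusted p = 0.000177), and its day 21 difference from day 0 was 0.58 ± 0.11, or 1.50-fold (edgeR adjusted p = 0.00346). For day 21 against day 3 the value was -0.27 ± 0.11 (edgeR adjusted p = 0.0876), and without day 21 replicate 2 it was -0.38 and called (edgeR adjusted p = 0.000398). In absolute terms its day 3 gain of 72.0 FPKM was second to the 96.7 FPKM gained by Anxa2.

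Anxa6 (ENSMUSG00000018340, GRCm38 chr11:54979108-55033445, minus strand), an annexin with a duplicated core that is known from endosomes and cholesterol traffic, was the sole member of the 8 whose mean was under that of day 0 at both later days. Libraries had 89.0, 83.0 and 83.7 FPKM at day 0, 79.6, 79.1 and 78.9 FPKM at day 3 and 59.7, 78.7 and 60.0 FPKM at day 21. All day 3 libraries lay below all day 0 libraries, and all day 21 libraries below all day 3 libraries, though day 21 replicate 2 stood within 1 FPKM of day 3. The day 3 difference from day 0 was -0.16 ± 0.11 and was not called (edgeR adjusted p = 0.282). Of all tested genes 30.0% had every day 3 library below every day 0 library. The same difference was -0.16 and called without day 21 replicate 2, whose spread enters the common fit (edgeR adjusted p = 0.0116). It was lower at day 21 than at day 0 (-0.49 ± 0.11, edgeR adjusted p = 0.00989), and without day 21 replicate 2 that difference was -0.62 (edgeR adjusted p = 1.16e-05). It missed the threshold under limma on log2(FPKM + 1) (-0.37, limma adjusted p = 0.0519) and in a fit of those groups alone (-0.48, edgeR adjusted p = 0.0568). For day 21 against day 3 it was -0.34 ± 0.11 and missed the threshold (edgeR adjusted p = 0.0508), and without that library it was -0.46 and called (edgeR adjusted p = 6.92e-05).

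Anxa7 (ENSMUSG00000021814, GRCm38 chr14:20455261-20480133, minus strand) was named synexin for its role in membrane fusion during secretion. Values were 22.6, 22.7 and 23.2 FPKM at day 0, 31.4, 37.7 and 39.1 FPKM at day 3 and 27.5, 31.2 and 27.6 FPKM at day 21. Each day stood apart from the others, and day 3 replicate 1 was the lowest of its group. It was higher at day 3 than at day 0 (0.61 ± 0.11, edgeR adjusted p = 0.00206). The day 21 difference from day 0 was 0.21 ± 0.11 and was not called (edgeR adjusted p = 0.207). With a filter of 5 FPKM in 3 libraries it was 0.35 and called (edgeR adjusted p = 0.0392). The value for day 21 against day 3 was -0.40 ± 0.11 (edgeR adjusted p = 0.0276). This call was lost without day 0 replicate 1 (edgeR adjusted p = 0.0515), day 3 replicate 2 (0.103), day 3 replicate 3 (0.115), day 21 replicate 1 (0.0805) or day 21 replicate 3 (0.0721). It was also lost with no filter (edgeR adjusted p = 0.0663), with the filter of 5 FPKM (0.0508) and in a fit of those groups alone (0.0942). Under limma on log2(FPKM + 1) it was lost as well (limma adjusted p = 0.0591).

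Anxa11 (ENSMUSG00000021866, GRCm38 chr14:25842156-25886804, plus strand) tethers RNA granules to lysosomes for transport in axons and is mutated in some human motor neuron disease. Levels were 2.06, 1.89 and 2.21 FPKM at day 0, 3.35, 3.07 and 3.23 FPKM at day 3 and 2.03, 1.69 and 1.56 FPKM at day 21. The day 3 libraries stood above both other groups, and days 21 and 0 overlapped. Its day 3 difference from day 0 was 0.59 ± 0.14 (edgeR adjusted p = 0.00694), and it fell by 0.94 ± 0.14 at day 21 against day 3 (edgeR adjusted p = 0.00139). The day 21 difference from day 0 was -0.35 ± 0.14 and was not called (edgeR adjusted p = 0.097), and without day 21 replicate 1 it was -0.48 and called (edgeR adjusted p = 0.0411). The antisense gene Anxa11os shares 2.73% of its exon bases and had 0 counts in every library.

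**Figure D2:**
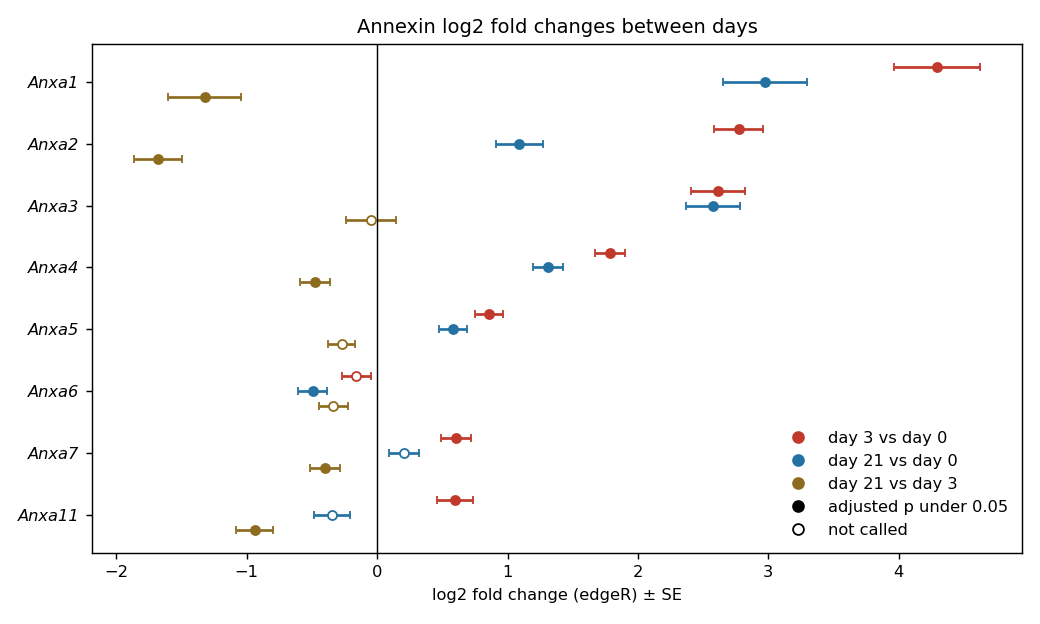
Log2 fold changes of the 8 annexins (x axis) in the 3 comparisons between days, from 1 edgeR fit. Points are estimates, bars are SE, and filled points passed an adjusted p of 0.05. Anxa1 lies farthest right for day 3 against day 0 at 4.29, and Anxa2 farthest left for day 21 against day 3 at -1.68.

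Between day 21 and day 0, 5 of the 8 annexins were higher (Anxa1, Anxa2, Anxa3, Anxa4 and Anxa5), Anxa6 was lower, and Anxa7 and Anxa11 were not called. Of all tested genes 29.2% were called in that comparison, with 17.9% higher and 11.3% lower. By FPKM, 6 annexins had every day 21 library above every day 0 library, as did 27.2% of tested genes, and Anxa6 had every one below, as did 14.1%. The annexins' median log2 fold change was 0.84, and that of all tested genes was 0.02. Between day 21 and day 3, no annexin was higher, 5 were lower (Anxa1, Anxa2, Anxa4, Anxa7 and Anxa11) and 3 were not called. Of all tested genes 27.8% were called there, with 11.7% higher and 16.1% lower, 6 annexins had every day 21 library below every day 3 library, as did 21.6% of tested genes, and the medians were -0.44 for the annexins and 0.02 for all tested genes. The comparisons share libraries, so their values are set side by side and not as separate evidence. Leaving out day 21 replicate 2, the annexin counts were 7 higher and 1 lower for day 3 against day 0, 5 higher and 1 lower for day 21 against day 0, and 7 lower for day 21 against day 3. Calls over all tested genes were also more frequent in that fit, with 32% higher and 29.2% lower for day 3 against day 0. Those shares were 25.1% higher and 22.4% lower for day 21 against day 0. They were 23.5% higher and 25.7% lower for day 21 against day 3. Without day 3 replicate 3, 3 annexins were lower for day 21 against day 3. Calls over all genes also fell there, with 1900 lower against 2657 with all libraries. Without day 0 replicate 1, 4 annexins were lower for day 21 against day 3, as were 14.4% of all tested genes. The other annexin counts in that fit were as with all libraries.

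The plot of log2 fold changes sets the 3 comparisons side by side on a log scale. How much of the early gain was present at the later day is given here in mean FPKM. Of the FPKM gained by day 3, the day 21 mean held 103% for Anxa3, 72.7% for Anxa5, 66.3% for Anxa4, 44.7% for Anxa7, 39.2% for Anxa1 and 21.9% for Anxa2. With day 21 replicate 2 left out these shares were 83.8%, 57.1%, 59.0%, 35.4%, 35.4% and 15.1% in the same order. For Anxa11 the share was -25.3%, since its day 21 mean of 1.76 ± 0.244 FPKM was under its day 0 mean of 2.05 ± 0.159 FPKM (SD, n = 3 each). In FPKM the phagocyte annexin Anxa3 thus had the highest share and the S100a10 partner Anxa2 the lowest among those still above day 0, with or without that library.

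**Figure D3:**
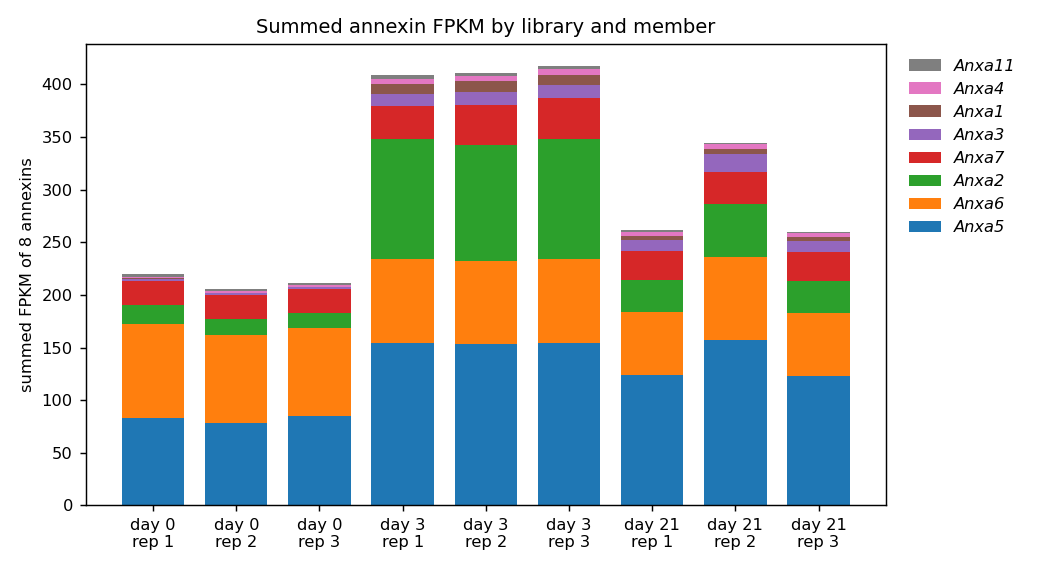
Summed FPKM of the 8 annexins in each library (y axis, from 0) by day and replicate (x axis), with each bar divided by gene. Day 0 bars reach 205 to 219 FPKM, day 3 bars 408 to 418 FPKM and day 21 bars 260 to 345 FPKM.

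Summed over the 8 genes, annexin transcripts came to 212 ± 7.01 FPKM at day 0, 412 ± 4.64 FPKM at day 3 and 289 ± 48.4 FPKM at day 21 (SD, n = 3 each). The day 21 spread comes from replicate 2, with 345 FPKM, and without it the libraries held 262 and 259.9 FPKM. As TPM, which rescales each library to a common total, the sums were 696, 1225 and 847. The bars of summed FPKM change in make-up as well as in height. Anxa6 made up 40.2 ± 0.49% of the sum at day 0, 19.2 ± 0.29% at day 3 and 22.9 ± 0.15% at day 21. Anxa2 made up 7.50 ± 0.69% at day 0, 27.3 ± 0.50% at day 3 and 12.6 ± 1.65% at day 21. Anxa5 made up 38.8 ± 1.11% at day 0, 37.4 ± 0.44% at day 3 and 46.7 ± 0.96% at day 21. In percentage points the share of Anxa2 grew most at day 3 and that of Anxa6 shrank most, while Anxa5 had its largest share at day 21. The remaining 5 annexins together were the smaller part of the sum on every day, with Anxa7 the largest of them at 10.8% at day 0, 8.74% at day 3 and 10.1% at day 21.

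By mean FPKM the order of levels at day 0 was Anxa6, Anxa5, Anxa7, Anxa2, Anxa11, Anxa3, Anxa4 and Anxa1. Anxa6 and Anxa5 overlapped there, as did Anxa11 and Anxa3. At day 3 it was Anxa5, Anxa2, Anxa6, Anxa7, Anxa3, Anxa1, Anxa4 and Anxa11, with no overlap between neighbours. At day 21 it was Anxa5, Anxa6, Anxa2, Anxa7, Anxa3, Anxa1, Anxa4 and Anxa11, with overlap between Anxa2 and Anxa7 and between Anxa1 and Anxa4. The order depends on the gene length used. With GENCODE M21 exon lengths, Anxa5 had 105 and Anxa6 88.5 FPKM at day 0, Anxa2 had 17.4 and Anxa7 12.2 FPKM at day 0, and Anxa3 stood above Anxa11 at day 0. With those lengths at day 21, Anxa3 had 17.7 and Anxa7 15.4 FPKM, and Anxa4 had 6.09 and Anxa1 5.34 FPKM, while the day 3 order was the same.

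Each annexin was also set against 6884 genes of at least 5 FPKM by the root mean square difference of their centred log2 CPM over the 9 libraries, where a smaller value means a more similar pattern. Closest to Anxa1, whose own spread was 1.88, were Wfdc17 at 0.274, Lum at 0.342 and Ifi30 at 0.400. For Anxa2, with a spread of 1.16, they were Plin2, a lipid droplet protein, at 0.119, Pmp2, a myelin protein, at 0.134 and Fkbp10 at 0.135. Anxa3, with a spread of 1.24, was closest to the receptor Tlr2 at 0.126, to the class II gene H2-Ab1 at 0.141 and to the protease Ctsz at 0.142. Nearest to Anxa4, with a spread of 0.755, were the astrocyte filament gene Gfap at 0.091, the protease Ctsb at 0.115 and the macrophage receptor Csf1r at 0.116. Anxa5 (spread 0.367) was nearest to Idh2 at 0.059, Cercam at 0.073 and Arhgef1 at 0.085. For Anxa6 (spread 0.230) the closest were Dok5 at 0.052, Bysl at 0.057 and Bag6 at 0.063. For Anxa7 (spread 0.265) they were Galnt1 at 0.087, Armc5 at 0.091 and Pon2 at 0.092, and for Anxa11 (spread 0.405) Spsb1 at 0.097, Klf13 at 0.116 and Zswim4 at 0.117. No annexin was among the 3 closest genes of another. Anxa1, Anxa4 and Anxa11 had means under 5 FPKM and could not be listed. Within the family the closest pair was Anxa5 and Anxa7 at 0.184, then Anxa7 and Anxa11 at 0.306.

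The other 4 annexin genes of the table were scarce. Anxa8, an annexin known from epithelia, had 0.681, 0.538 and 0.677 FPKM at day 3, against 0.237, 0.334 and 0.274 FPKM at day 0. Its difference was 1.12 ± 0.30 (edgeR adjusted p = 0.0131) and was not called without day 0 replicate 1 (edgeR adjusted p = 0.0613). Anxa9 differed by 1.15 ± 0.34 at day 3 against day 0 (edgeR adjusted p = 0.0206). That call was lost without day 0 replicate 1 (0.0834), day 0 replicate 3 (0.0754), day 3 replicate 2 (0.0681) or day 3 replicate 3 (0.0729). At day 21 Anxa9 had 0.756, 0.922 and 0.573 FPKM, against 0.201, 0.331 and 0.169 FPKM at day 0 (1.57 ± 0.33, edgeR adjusted p = 0.00712). Anxa8 differed by 1.02 ± 0.30 at day 21 against day 0 (edgeR adjusted p = 0.031), a call that was lost without any 1 library other than day 3 replicate 2 and day 21 replicate 3 (edgeR adjusted p = 0.051 to 0.104). Anxa10, which did not pass the filter, had 44 counts in the day 3 libraries and 3 in the day 0 libraries, a ratio of 17.2 per total count with an exact 95% interval of 5.51 to 86.6 that covers counting error only. Anxa13 had 0 counts in every library.

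**Figure D4:**
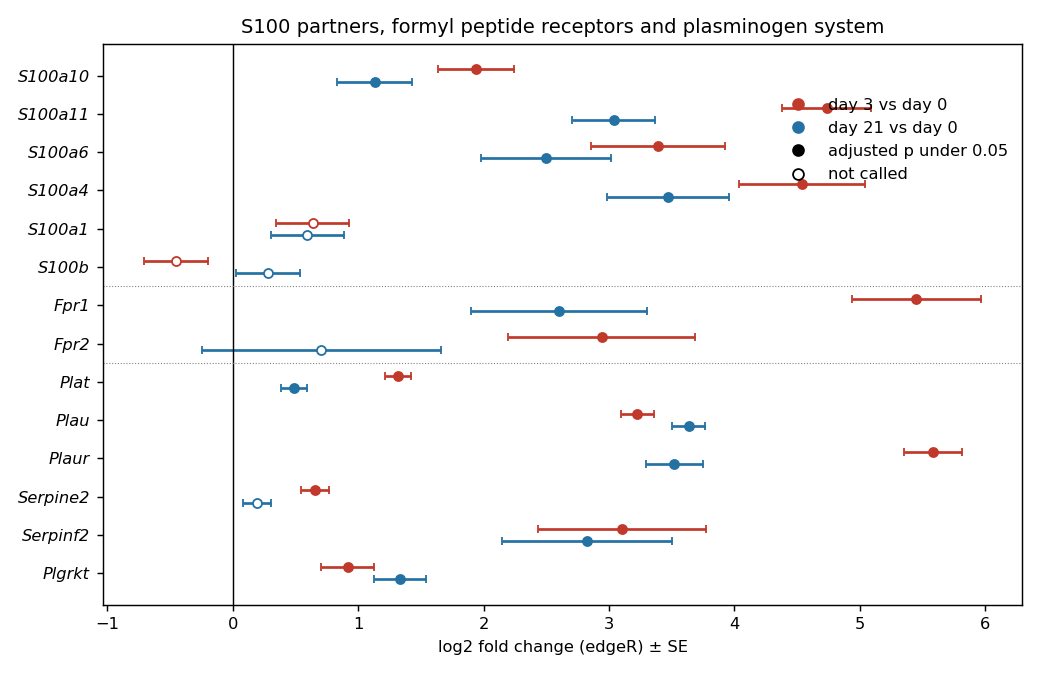
Log2 fold changes against day 0 (x axis) of S100 partners, formyl peptide receptors and 6 plasminogen genes (y axis, groups parted by dotted lines), at day 3 and at day 21, from the same edgeR fit. Bars are SE and filled points passed an adjusted p of 0.05. Plaur lies farthest right at day 3 at 5.58, S100a1 and S100b have open points at both days, and the Fpr1 points rest on 2 counts at day 0, with a day 21 call that is lost without some libraries.

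Proteins of the small S100 family bind annexin tails. In the plot of partner genes, 4 of 6 were higher and 2 were not called at day 3 against day 0, with a median log2 fold change of 2.66. S100a10, the partner of Anxa2, had 71.1, 67.1 and 70.0 FPKM at day 3, against 20.8, 16.7 and 15.0 FPKM at day 0. It was higher in all day 3 libraries (1.94 ± 0.31, edgeR adjusted p = 0.000786). S100a11, a partner of Anxa1, had 237, 222 and 222 FPKM at day 3, against 6.76, 10.4 and 7.55 FPKM at day 0, a difference of 4.74 ± 0.35 (edgeR adjusted p = 7.25e-06). S100a4 and S100a6 rose by 4.54 ± 0.50 and 3.39 ± 0.53 (edgeR adjusted p = 8.68e-05 and 0.000787). Against day 0, 4 of the 6 were higher at day 21. For S100a10 the value was 1.13 ± 0.30 (edgeR adjusted p = 0.0209) and the call was lost without day 0 replicate 2 (0.0699) or day 0 replicate 3 (0.08). S100a10 at day 21 against day 3 was -0.81 ± 0.30 (edgeR adjusted p = 0.0734), with day 21 libraries at 27.4, 68.0 and 30.7 FPKM. Of the 6 S100 genes, 1 was lower at day 21 than at day 3. With day 21 replicate 2 left out, the highest of them for S100a10, that gene's value was -1.31 (edgeR adjusted p = 1.53e-05), 5 of the 6 were lower and 1 was higher. With day 21 replicate 3 left out, 1 was lower and 1 higher.

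Anxa1 acts on leukocytes through members of the formyl peptide receptor family. Of 7 genes named for that family, 2 passed the filter, and Fpr3, Fpr-rs3, Fpr-rs4, Fpr-rs6 and Fpr-rs7 had 0 counts in every library. Fpr1 had 93 counts in the day 3 libraries and 2 in the day 0 libraries, a ratio of 54.5 per total count with an exact 95% interval of 14.7 to 457. In the day 21 libraries it had 12 counts, a ratio of 7.72 to day 0 with an interval of 1.72 to 71.0 that covers counting error only. Its edgeR call at day 21 against day 0 (edgeR adjusted p = 0.0223) was lost without day 0 replicate 1 (0.06), day 0 replicate 2 (0.0562) or day 21 replicate 1 (0.0776), and under limma on log2(FPKM + 1) (limma adjusted p = 0.108). Fpr2 had 22, 21 and 13 counts at day 3, against 5, 1 and 2 counts at day 0, and was higher (2.94 ± 0.74, edgeR adjusted p = 0.0107). Its day 21 libraries had 2, 0 and 9 counts, which overlap those of day 0. The day 21 difference from day 0 was 0.71 ± 0.96 (edgeR adjusted p = 0.627), and without day 21 replicate 3 it was -1.10. Both receptors were thus detected at day 3 at under 2 FPKM in every library, beside 9.52 to 10.3 FPKM of Anxa1.

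The plasminogen system dissolves fibrin and matrix, and the complex of Anxa2 and S100a10 concentrates it on cells. All 7 of its tested genes were higher at day 3 than at day 0, with a median log2 fold change of 3.10. The urokinase receptor Plaur rose by 5.58 ± 0.23 (edgeR adjusted p = 2.66e-07) and urokinase, Plau, by 3.23 ± 0.13 (edgeR adjusted p = 2.15e-07). Plat, the tissue activator that Anxa2 binds, had 69.1, 70.7 and 71.5 FPKM at day 3, against 28.3, 28.7 and 24.7 FPKM at day 0 (1.32 ± 0.11, edgeR adjusted p = 1.19e-05). At day 21, 6 of the 7 were higher than at day 0. Plau was then 3.64 ± 0.13 above day 0 (edgeR adjusted p = 7.39e-07) and Plat 0.49 ± 0.11 (edgeR adjusted p = 0.00809). Between day 21 and day 3, 1 was higher and 4 were lower (none and 3 without day 3 replicate 2), among them Plaur at -2.06 ± 0.18 (edgeR adjusted p = 8.16e-05) and Plat at -0.83 ± 0.11 (edgeR adjusted p = 0.000605). Plg, the gene of plasminogen itself, had 15, 10 and 12 counts summed over the libraries of days 0, 3 and 21 and was not tested.

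Membrane repair joins annexins with ferlins, caveolae and calpains. At day 3 against day 0, 7 of its 14 tested genes were higher and 7 were not called, with a median of 0.38. Of all tested genes 24.8% were higher there. Among the 7 higher genes was Cav1 (1.62 ± 0.53, edgeR adjusted p = 0.0338), whose day 3 and day 0 libraries overlapped. Its call was lost in several fits, such as those without day 0 replicate 1 (0.121) or day 3 replicate 3 (0.122). Pdcd6, Pdcd6ip, Chmp4b, Vps4b and Tsg101 were among the genes not called. The ferlin Myof rose by 3.76 ± 0.18 (edgeR adjusted p = 5.58e-07) and the scaffold Ahnak, which also binds the complex of Anxa2 and S100a10, by 2.63 ± 0.29 (edgeR adjusted p = 9.25e-05). Against day 0, 4 of the 14 were higher, 1 was lower and 9 were not called at day 21. Of all tested genes 17.9% were higher and 11.3% lower there. Without day 0 replicate 3, 2 of the 14 were higher and none lower, and without day 0 replicate 2, 3 were higher and none lower. Myof was still 2.28 ± 0.17 above day 0 at day 21 (edgeR adjusted p = 2.25e-05). Of the 14, 5 were lower at day 21 than at day 3, and 3 were when any 1 day 3 library was left out. Dysf, the ferlin that is mutated in a muscular dystrophy, was among them at -1.29 ± 0.11 (edgeR adjusted p = 6.46e-05).

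Anxa5 binds phosphatidylserine after scramblases have moved it to the outer leaflet. Of 11 tested genes of phosphatidylserine exposure, 4 were higher, 2 were lower and 5 were not called at day 3 against day 0. Their median log2 fold change was 0.18, and of all tested genes 24.8% were higher and 19.5% lower. Without day 21 replicate 2, 6 of the 11 were higher and 4 lower. In that fit 32% of all tested genes were higher and 29.2% lower. The scramblase Ano6 was higher (1.71 ± 0.13, edgeR adjusted p = 8.46e-06), as was Plscr1 (1.83 ± 0.22, edgeR adjusted p = 0.000135), and the flippase Atp8a2, known from neurons, was lower (-2.09 ± 0.37, edgeR adjusted p = 0.00147). At day 21, 6 of the 11 were higher than at day 0, 1 was lower and 4 were not called. Of all tested genes 17.9% were higher and 11.3% lower there.

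Phagocytes read phosphatidylserine through receptors and bridging proteins, and 12 of 16 tested genes of that list were higher and 2 lower at day 3 against day 0, with a median of 1.44. Cd300lf rose by 7.39 ± 0.25 (edgeR adjusted p = 9.53e-08), the scavenger receptor Cd36 by 5.52 ± 0.21 (edgeR adjusted p = 1.65e-07), Stab1 by 3.88 ± 0.12 (edgeR adjusted p = 7.05e-08) and the microglial receptor Trem2 by 2.99 ± 0.23 (edgeR adjusted p = 9.91e-06). At day 21, 9 were higher than at day 0 and 2 were lower, with Trem2 at 3.56 ± 0.24 (edgeR adjusted p = 1.12e-05). Of the 16, 8 were lower at day 21 than at day 3 and none higher, and without day 21 replicate 2, 8 were lower and 2 higher. Cytosolic phospholipase A2 makes arachidonic acid, and Anxa1 was first described as a phospholipase A2 inhibitor. Of the 4 tested genes in a list of Pla2g4 genes and Pla2g6, 1 was higher and 1 lower at day 3 against day 0, with Pla2g4a at 0.93 ± 0.16 (edgeR adjusted p = 0.00145) and Pla2g4e at -1.07 ± 0.18 (edgeR adjusted p = 0.00118).

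**Figure D5:**
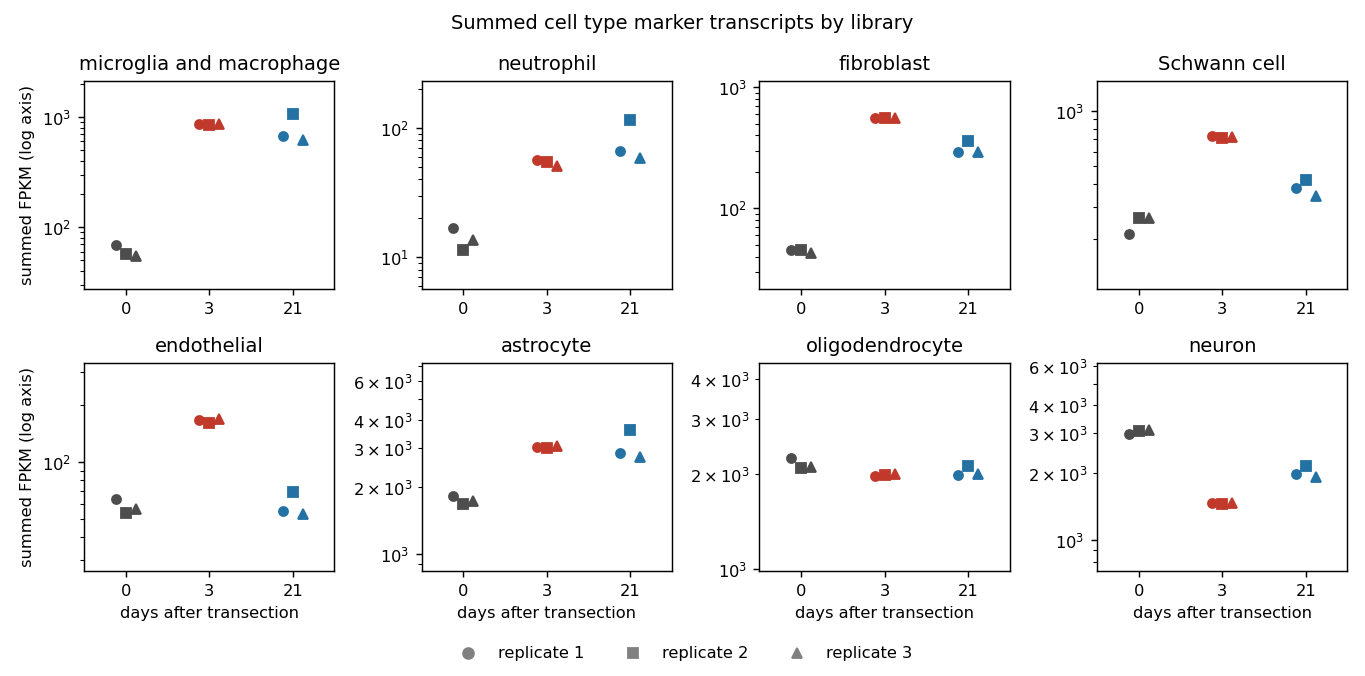
Summed FPKM of 8 cell type marker lists (y axes, log scale) in each library by day after transection (x axes), with a marker shape per replicate. Macrophage, fibroblast, Schwann cell and endothelial sums are higher in all day 3 libraries than in any day 0 library, and neuron sums are lower.

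Markers of several cell types were higher at day 3 than at day 0, as most annexins were. The part of these cell types in the annexin changes was not tested. As the plot of marker sums shows, microglia and macrophage markers summed to 54.7 to 68.5 FPKM at day 0, 843 to 864 FPKM at day 3 and 623 to 1061 FPKM at day 21. All 9 of these markers were higher at both later days than at day 0. Fibroblast markers summed to 43.2 to 45.5 FPKM at day 0, 557 to 560 FPKM at day 3 and 289 to 357 FPKM at day 21, with 8 of 8 higher at day 3 and 7 of 8 at day 21. Schwann cell markers summed to 213 to 261 FPKM at day 0, 711 to 729 FPKM at day 3 and 345 to 418 FPKM at day 21, and 7 of 8 were higher at each later day. Neutrophil markers summed to 11.3 to 16.7 FPKM at day 0, 50.4 to 56.2 FPKM at day 3 and 58.3 to 115 FPKM at day 21, with 7 of 9 tested markers higher at day 3 and 9 of 9 at day 21, and Ly6g did not pass the filter. Of those 9 tested markers 2 were higher and none lower at day 21 than at day 3. Of all tested genes 11.7% were higher and 16.1% lower in that comparison.

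The sums of the other lists, some of which also rose at day 3, are given next. Endothelial markers summed to 53.5 to 63.5 FPKM at day 0, 161 to 169 FPKM at day 3 and 52.7 to 69.7 FPKM at day 21, with 5 of 7 higher at day 3 and none higher at day 21. Astrocyte markers summed to 1676 to 1818 FPKM at day 0, 2998 to 3050 FPKM at day 3 and 2736 to 3632 FPKM at day 21, and of the 8 markers 4 were higher and 3 lower at day 3 against day 0. The rise of this sum came mainly from Gfap, with means of 553, 2012 and 1686 FPKM on the 3 days. The 3 lower markers were Slc1a2, Slc1a3 and Aldoc. Sensory neuron markers summed to 11.5 to 14.6 FPKM at day 0, 54.7 to 56.3 FPKM at day 3 and 21.5 to 30.5 FPKM at day 21, with 8 of 9 higher at day 3 and 6 of 9 at day 21. Neuron markers summed to 2992 to 3096 FPKM at day 0, 1458 to 1469 FPKM at day 3 and 1920 to 2153 FPKM at day 21, with 9 of 9 lower at day 3 and 7 of 9 at day 21. Oligodendrocyte markers summed to 2098 to 2257 FPKM at day 0, 1975 to 1999 FPKM at day 3 and 1984 to 2130 FPKM at day 21, and 5 of 8 were lower at day 3. Skeletal muscle markers, which do not belong to cord, summed to 15.5 to 20.8 FPKM at day 0, 6.65 to 7.16 FPKM at day 3 and 125 to 242 FPKM at day 21, and all 8 were higher at day 21 than at day 0. Ependymal markers summed to 25.9 to 31.9 FPKM at day 0, 24.1 to 25.8 FPKM at day 3 and 31.9 to 46.0 FPKM at day 21. Markers of T, B and NK cells summed to 0.102 to 0.485 FPKM at day 0, 0.590 to 0.630 FPKM at day 3 and 1.64 to 2.90 FPKM at day 21, none of the 8 passed the filter, and Cd3e and Cd3d were at 0 in every day 0 library.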

How the data were processed

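Poly-A RNA of 9 mouse spinal cord libraries was sequenced, and per the submitters' processing notes HISAT2, StringTie (no versions given) and GRCh38 were used, although the loci are those of mouse GRCm38 (27686 of 34344 gene IDs shared with GENCODE M21 had identical loci). The annotation, the counting and its use of strand are not given there. The deposited counts are whole numbers per gene, as headers and values show. The authors' deposited FPKM values equal count over gene length and library total, with a deviation of at most 0.00161% over 12001 genes that had 50 counts or more throughout.

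Counts were compared with edgeR 4.0.16 in R 4.3.3 (TMM scaling, its default filter on low counts, robust quasi-likelihood F tests, 9 libraries in 1 fit with 6 residual degrees of freedom, common biological coefficient of variation 0.205), two-sided, with Benjamini-Hochberg adjustment over 16494 genes and calls under 0.05. The SE is the log2 fold change over the square root of F. Total counts of 14299679 to 24022923 set the counting precision, and binomial intervals cover counting error only. Likeness used log2 CPM with a prior count of 2. The members and lists were chosen with earlier results of these data known. Named were all 8 members, up to 4 called genes of each list with the largest changes, S100a10, Fpr1, Fpr2, Plat and Anxa8, and the 3 genes most like each member. A gene that the rule took is not reported here, though list counts include it. Alternatives were DESeq2 1.42.0, median-of-ratios scaling, no filter or a filter of 5 FPKM in 3 libraries, limma 3.58.1 (voom with sample weights, or log2(FPKM + 1)), 2-group fits, a block for the replicate number, and leaving out each library. GENCODE exon lengths were tried after seeing the data.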

Additional observations from a re-analysis of the deposited data

How the results depend on the processing

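Of 402 values of the 24 annexin results under alternatives, 374 kept their direction and their side of the threshold, 13 lost the call, 11 gained it and 4 changed sign. Anxa4 and Anxa11 did not pass the filter of 5 FPKM, so they have no value there. The 4 changes of sign were all Anxa3 at day 21 against day 3, which was not called and became 0.038 with that filter and 0.0043 with limma on log2(FPKM + 1), and with 1 library left out lay between -0.27 and 0.067. The number of annexins called at day 21 against day 3 (5 with all libraries) was 2 with the filter of 5 FPKM, where fewer genes were tested, 8 with limma voom and sample weights and 3 in a fit of those groups alone, and the causes of the last 2 were not tested. The fit of those groups alone called 1497 of all its genes higher and 2069 lower. Leaving out a library gave 7 to 8 calls for day 3 against day 0, 6 to 7 for day 21 against day 0 and 3 to 7 for day 21 against day 3. Over all genes the calls in those fits ranged over 5879 to 10245, 3273 to 7955 and 2893 to 8246 in the same order. Anxa6 at day 21 against day 0 missed the threshold with limma on log2(FPKM + 1) (-0.37, limma adjusted p = 0.0519) and in the 2-group fit (-0.48, edgeR adjusted p = 0.0568). With 1 library left out, Anxa8 at day 21 against day 3 lay between -0.36 and 0.065, and Fpr2 at day 21 against day 0 between -1.10 and 1.27, both crossing 0 without day 21 replicate 3.

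Calls over all genes were 7307, 4813 and 4585 for day 3 against day 0, day 21 against day 0 and day 21 against day 3. The filter of 5 FPKM gave 3758, 2086 and 2505 and moved the median of the same genes by 0.15 at day 21 against day 0. Voom gave 8303 and 9251 for the last 2 comparisons, the 2-group fit 2909 for day 21 against day 0, and leaving out day 21 replicate 2 gave 7955 and 8246. Leaving out day 3 replicates 1, 2 or 3 gave 2893, 2969 and 2938 for day 21 against day 3.

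With the replicate number as a block, 7, 6 and 5 annexins were called in the same 3 comparisons, as without it. Over all genes the block fit gave 3775, 2516 and 1388 higher and 2814, 1318 and 2252 lower, in that order. Fpr1 and Anxa8 at day 21 against day 0 missed the threshold with the block (edgeR adjusted p = 0.0546 and 0.0658). Deviations of same-numbered libraries correlated at -0.15 to 0.11 (median -0.0044, 9 pairs), so the numbers were not taken as pairs. Depth limits the annexins with few counts, above all Anxa1 at day 0, and genes such as Anxa10 and the formyl peptide receptors.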
